A study of Mus musculus with 19 samples.

Results

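The receptor genes Egfr, Erbb2, Erbb3 and Erbb4 and the genes Errfi1, Lrig1 and Lrig3, whose products restrain those receptors, were followed through RNA-seq libraries of mouse pancreatic ductal adenocarcinoma. They are 7 of the 51707 genes in the tables and were taken by name, as the targets of neratinib and their negative regulators. Tumours arose from T-LOH KPC organoids transplanted orthotopically into C57BL/6J mice, so all groups share that tumour model and strain. T-LOH KPC is the labels' name for the organoid line, and the labels give no age. After 2 weeks of neratinib or vehicle, EpCAM+ cells (labelled epithelial) and PDPN+ cells (labelled CAFs, or cancer-associated fibroblasts) were sorted by flow cytometry. There were 5 EpCAM+ neratinib, 6 EpCAM+ vehicle, 4 PDPN+ neratinib and 4 PDPN+ vehicle libraries. In what follows, N or V before a mouse number stands for neratinib or vehicle. Each label carries a 5-digit number, taken here as the mouse. On that reading 11 mice were used, 8 with both populations and 3 with EpCAM+ cells alone, each library of a group comes from its own mouse, and every p-value depends on it.

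ERBB receptors are tyrosine kinases that pair with one another when a ligand of the EGF or neuregulin family binds. Erbb2 binds no ligand of its own, and the kinase of Erbb3 is impaired, so that Erbb3 signals through a partner and is a main docking site for PI3-kinase. Errfi1 (MIG6) is induced by growth factor signalling and blocks the kinase domain of ERBB receptors, and Lrig1 is a membrane protein that lowers receptor levels. Lrig3 belongs to the same family as Lrig1. Neratinib is an irreversible inhibitor that bonds to a cysteine at the edge of the ATP pocket of EGFR, ERBB2 and ERBB4.

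The codon for that cysteine shows which of the receptor transcripts can encode a covalent target. The 60 coding bases around it are given from the GENCODE M21 transcripts, the release used here to match transcript identifiers. The codon is in capitals, and codons are counted from the start codon. It is codon 799 of Egfr-201 (chromosome 11), 806 of Erbb2-201 (chromosome 11) and 803 of Erbb4-202 (chromosome 1). At the aligned place, codon 792 of Erbb3-201 (chromosome 10) reads serine. Over these bases Erbb2 matched Egfr at 48 of 60, Erbb4 at 46 and Erbb3 at 35.
Egfr: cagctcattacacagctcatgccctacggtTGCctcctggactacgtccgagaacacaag
Erbb2: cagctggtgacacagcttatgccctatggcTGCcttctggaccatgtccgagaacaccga
Erbb4: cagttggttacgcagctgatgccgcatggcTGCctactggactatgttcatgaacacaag
Erbb3: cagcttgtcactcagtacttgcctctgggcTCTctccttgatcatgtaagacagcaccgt

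A shorter annotated Egfr transcript, Egfr-202, lacks the codon. It shares the first 1926 coding bases of Egfr-201, which are 53.1% of that coding sequence, and then adds 39 bases of its own. The lines below join the last 30 shared bases, in lower case, to the first 30 bases after the split, in capitals.
Egfr-202: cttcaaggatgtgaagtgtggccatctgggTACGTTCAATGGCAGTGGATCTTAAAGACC
Egfr-201: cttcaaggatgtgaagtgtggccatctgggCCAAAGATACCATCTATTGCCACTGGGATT

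Reads assigned to genes came to 39.4 to 75.4 M per EpCAM+ library and 30.3 to 48.1 M per PDPN+ library (M, 1e6 reads). The summed TPM (the abundance unit of the tables, a level per transcript length) of 7 epithelial markers was 17600 to 23885 in EpCAM+ libraries and 286 to 1203 in PDPN+ libraries, where Krt8 (82.5 to 447 TPM) and Krt19 (118 to 564 TPM) made up most of it and Epcam had at most 35 reads. The sum of 7 fibroblast markers was 8.73 to 80.4 TPM in EpCAM+ libraries, against 4965 to 8218 TPM in PDPN+ libraries. Islet markers summed to 116 to 4287 TPM in EpCAM+ and 0.251 to 33.3 TPM in PDPN+ libraries. Acinar markers summed to 13.4 to 491 and 0.173 to 55.5 TPM in the same order. For mesothelial markers the sums were 573 to 1012 and 260 to 1049 TPM, and for macrophage markers 32.7 to 74.9 and 27.3 to 408 TPM. Which cells carried these reads was not tested. Mitochondrial transcripts took 4.89 to 6.45% of the TPM in EpCAM+ libraries and 12.3 to 32.5% in PDPN+ libraries. On the first principal component of the EpCAM+ libraries (38.0% of the variance) V53175, V53176 and N53178 stood apart, and among the PDPN+ libraries V53175 and V53188 did so on the first pair of components (26.2 and 22.6%). In those PDPN+ libraries 12057 and 11876 genes reached 10 reads, against 13642 to 18552 in the other PDPN+ libraries.

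Erbb3 and Erbb2, and among the inhibitors Errfi1 and Lrig1, were higher in EpCAM+ cells than in PDPN+ cells, and Lrig3 was lower. Erbb3 stood 78.5-fold higher, Erbb2 5.79-fold, Lrig1 5.55-fold and Errfi1 4.46-fold, whereas Lrig3 was 3.70-fold lower on normalised counts. Egfr did not pass the test, and Erbb4 was close to absent from both populations. Of the 6 members with enough reads to be tested, 5 were called at an adjusted p under 0.05 (edgeR's quasi-likelihood test over all 19 libraries, Benjamini-Hochberg over all genes), 4 higher and 1 lower. The background was high, since 49.3% of all genes tested were called, 25% higher and 24.3% lower. In bulk RNA, fewer cells of a type and less RNA per cell cannot be told apart.

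Erbb3, the receptor without a target cysteine, had 35.6, 108, 59.6, 88.8 and 107 TPM in EpCAM+ neratinib libraries. EpCAM+ vehicle libraries held 28.5 to 90.4 TPM of Erbb3 with a median of 59.7. In PDPN+ cells Erbb3 was at 0, 0, 1.45 and 0.0288 TPM with neratinib and at 0, 2.79, 1.11 and 0.00487 TPM with vehicle, the last resting on 1 read. Every EpCAM+ library therefore lay far above every PDPN+ library, and 3 of the 8 PDPN+ libraries had no Erbb3 read at all. The log2 fold change on counts was 6.29 (SE 1.24, adjusted p = 3.49e-04 by edgeR). It moved to 9.10 without the PDPN+ library of N53184 and to 7.10 without that of V53179. With the mouse as a block, over just the 8 mice with both populations, it was 9.62 (adjusted p = 0.0029, edgeR). The PDPN+ libraries of N53184 and V53179 had 360 and 655 Erbb3 reads, and they also held 294 and 338 reads of the epithelial gene Cdh1. The PDPN+ library of V53185 had 273 Erbb3 reads beside 4 Cdh1 reads, 65 reads of the tight junction gene Cldn4 and 35 Epcam reads, the most Epcam of any PDPN+ library. That of N53194 had 5 Erbb3 reads beside 67 Cdh1, 336 Cldn4 and 7 Epcam reads, and Cldn4 was highest in N53184 and V53179, at 493 and 824 reads. The other 4 PDPN+ libraries had at most 1 Erbb3, 1 Cdh1, 2 Cldn4 and 1 Epcam read, while Krt8 and Krt19 had 4374 reads or more in every PDPN+ library. The Schwann cell marker Sox10 was at 0 in all PDPN+ libraries. Whether epithelial RNA accounts for the Erbb3 reads of PDPN+ libraries was not tested.

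Erbb2 had 7.88, 27.2, 18.6, 26.2 and 21.9 TPM in EpCAM+ neratinib libraries. EpCAM+ vehicle libraries held 8.02 to 19.7 TPM of Erbb2, with a median of 18.5. The PDPN+ libraries had 2.25, 4.40, 3.22 and 1.52 TPM of Erbb2 with neratinib and 0, 4.02, 2.81 and 0.365 TPM with vehicle. The populations did not overlap, and the lowest PDPN+ values were those of the pair that stood apart. The log2 fold change of Erbb2 was 2.53 (SE 0.65, adjusted p = 0.0031, edgeR).

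Egfr was the receptor gene that PDPN+ cells also carried at a high level. EpCAM+ libraries had 14.4, 28.5, 20.4, 21.7 and 28.9 TPM of Egfr with neratinib, and 11.0 to 38.8 TPM with vehicle (median 19.96). PDPN+ libraries ranged far more widely, at 3.60, 68.3, 15.7 and 28.9 TPM of Egfr with neratinib and 1.03, 31.9, 19.7 and 48.3 TPM with vehicle. The highest and the lowest Egfr levels of the whole series were both in PDPN+ cells, and the populations overlapped. The log2 fold change was -0.92 (SE 0.42, adjusted p = 0.0797, edgeR), and the call hung on single libraries. Without the PDPN+ library of V53175, the one with the least Egfr, the change was -1.05 with an adjusted p of 0.0084 (edgeR), and without both PDPN+ libraries that stood apart it was -0.89 with an adjusted p of 0.0318. On log2(TPM + 1) the sign turned to 0.30 (adjusted p = 0.627, limma), on a scale where the median over all genes was 0.64 against 0.13 on counts. No direction is given for Egfr for that reason.

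Erbb4, a receptor for neuregulins and for some EGF-family ligands, had 0 to 2 reads in EpCAM+ neratinib libraries and 0 to 3 reads in 5 of the 6 EpCAM+ vehicle libraries, with 20 reads (0.424 TPM) in V53176. No PDPN+ library had an Erbb4 read, and a count of 0 allows up to 3 reads, which is 0.0989 CPM in the shallowest library. Erbb4 did not pass the filter on low counts.

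**Figure D1:**
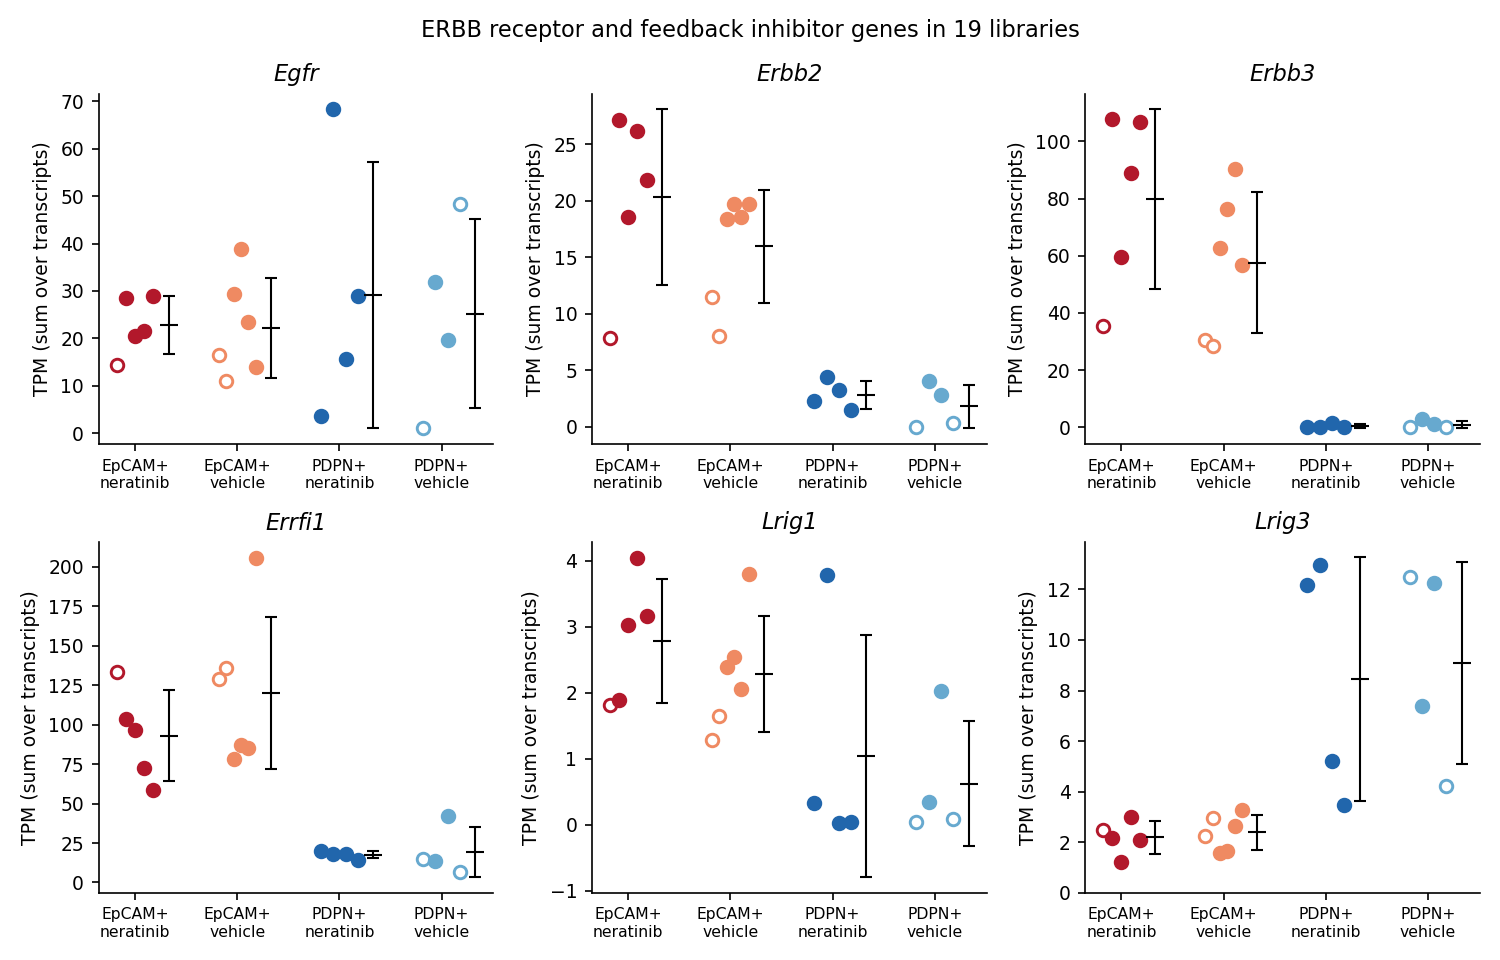
TPM of 6 members in every library, 1 panel a gene, with the EpCAM+ groups on the left and the PDPN+ groups on the right of each panel. Points are libraries, open points are those that stood apart on principal components, and the bars give the mean and SD of a group. Erbb2, Erbb3 and Errfi1 lie higher in every EpCAM+ library than in any PDPN+ library, Lrig3 lies lower, and Egfr ranges from 1.03 to 68.3 TPM among PDPN+ libraries. Erbb4, at most 0.424 TPM, is not drawn.

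Without overlap in TPM, Erbb2, Erbb3 and Errfi1 were higher and Lrig3 lower in EpCAM+ cells; over all genes tested, 22.1% did not overlap, 16.6% higher and 5.55% lower. The receptor makeup per library followed from these levels. In EpCAM+ cells Erbb3 made up 61.5% ± 5.0 of the summed receptor TPM, Egfr 21.5% ± 4.9 and Erbb2 16.9% ± 2.7 (SD, n = 11). In PDPN+ cells Egfr made up 86.6% ± 13.1, Erbb2 11.0% ± 12.3 and Erbb3 2.39% ± 3.36 (SD, n = 8). These shares count every transcript of a gene, so that of Egfr includes Egfr-202, which lacks the target codon. Erbb3 exceeded Egfr by 1.87 to 4.10 times in all 11 EpCAM+ libraries and reached at most 0.0921 of the Egfr level in a PDPN+ library. The makeup was steady in EpCAM+ cells although the summed level was not, at 57.8 to 164 TPM with neratinib and 47.9 to 135 TPM with vehicle.

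**Figure D2:**
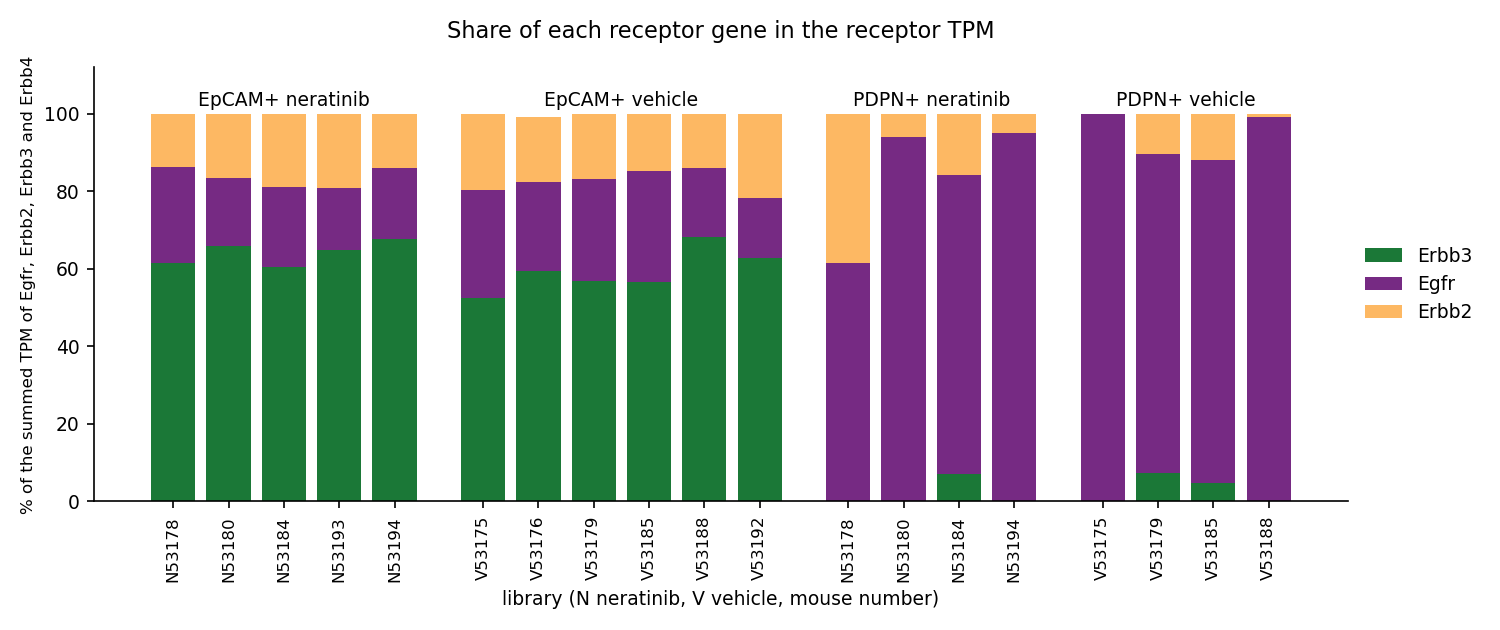
Share of each receptor gene in the summed TPM of Egfr, Erbb2, Erbb3 and Erbb4 (vertical axis, percent), 1 bar a library, EpCAM+ groups first. Erbb3 takes 52.4 to 68.2% of every EpCAM+ bar and at most 7.21% of a PDPN+ bar, where Egfr takes 61.6 to 100%. Erbb4, at most 0.886%, is not drawn.

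Ordered by mean TPM, EpCAM+ cells had Errfi1 (107.8), Erbb3 (67.6), Egfr (22.4), Erbb2 (17.96), Lrig1 (2.52), Lrig3 (2.30) and Erbb4 (0.0406). Errfi1 was above Erbb3 in 7 of 11 libraries and Lrig1 above Lrig3 in 6 of 11, so those neighbours did not differ beyond their spread. Egfr was above Erbb2 in 9 of 11, and each remaining step of the order held in all 11 libraries. The order is one of gene sums. Egfr-201, the Egfr transcript with the target codon, averaged 6.64 ± 2.13 TPM in EpCAM+ cells, against 16.5 ± 5.51 TPM for Erbb2-201. In PDPN+ cells the order was Egfr (27.2), Errfi1 (18.5), Lrig3 (8.77), Erbb2 (2.32), Lrig1 (0.837), Erbb3 (0.672) and Erbb4 (0). Egfr was above Errfi1 in 4 of 8 libraries, whereas Errfi1 above Lrig3 and Lrig3 above Erbb2 held in all 8.

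Among the inhibitors, Errfi1 had 134, 103.3, 96.5, 72.8 and 58.6 TPM in EpCAM+ neratinib libraries. EpCAM+ vehicle libraries held 78.1 to 206 TPM of Errfi1, with a median of 108. PDPN+ libraries had 20.05, 18.3, 17.9 and 14.5 TPM with neratinib and 14.6, 13.6, 42.3 and 6.69 TPM with vehicle. All EpCAM+ libraries were above all PDPN+ libraries, and the log2 fold change was 2.16 (SE 0.26, adjusted p = 1.57e-06, edgeR). Mitochondrial transcripts, more abundant in PDPN+ libraries, lower every other TPM there; with TPM rescaled without them, the log2 ratio of mean Errfi1 was 2.26, against 2.54 before, and that of Egfr -0.61, against -0.28.

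The LRIG genes moved in opposite directions. Lrig1 had 1.82, 1.89, 3.03, 4.05 and 3.16 TPM in EpCAM+ neratinib libraries and 1.28 to 3.80 TPM, with a median of 2.23, in EpCAM+ vehicle libraries. PDPN+ libraries had 0.329, 3.79, 0.0327 and 0.0380 TPM of Lrig1 with neratinib and 0.0497, 0.346, 2.02 and 0.0853 TPM with vehicle. The populations overlapped through N53180 and V53185, and 5 of the 8 PDPN+ libraries had just 4.04 to 12.8 estimated Lrig1 reads. In N53180, 3.52 TPM of the Lrig1 sum was the short processed transcript Lrig1-206, on 35.6 reads, while V53185 had 0 TPM of it. The log2 fold change was 2.47 (SE 0.70, adjusted p = 0.0063, edgeR). The call was lost with offsets for effective transcript length (1.31, adjusted p = 0.182, edgeR), and the value was 3.57 without the PDPN+ library of N53180, 3.40 without that of V53185 and 3.77 with the mouse as a block (adjusted p = 0.0181).

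Lrig3 had 2.48, 2.15, 1.23, 3.01 and 2.08 TPM in EpCAM+ neratinib libraries and 1.59 to 3.29 TPM, with a median of 2.44, in EpCAM+ vehicle libraries. In PDPN+ libraries Lrig3 stood at 12.2, 13.0, 5.20 and 3.47 TPM with neratinib and at 12.5, 7.40, 12.3 and 4.22 TPM with vehicle. The lowest PDPN+ library was just above the highest EpCAM+ library, and the log2 fold change was -1.89 (SE 0.32, adjusted p = 6.60e-05, edgeR). Most of the gap lay in one transcript, described under the isoforms. The ratio of Lrig3 to Lrig1 was 0.406 to 1.79 in EpCAM+ libraries, against 3.42 to 251 in PDPN+ libraries.

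**Figure D3:**
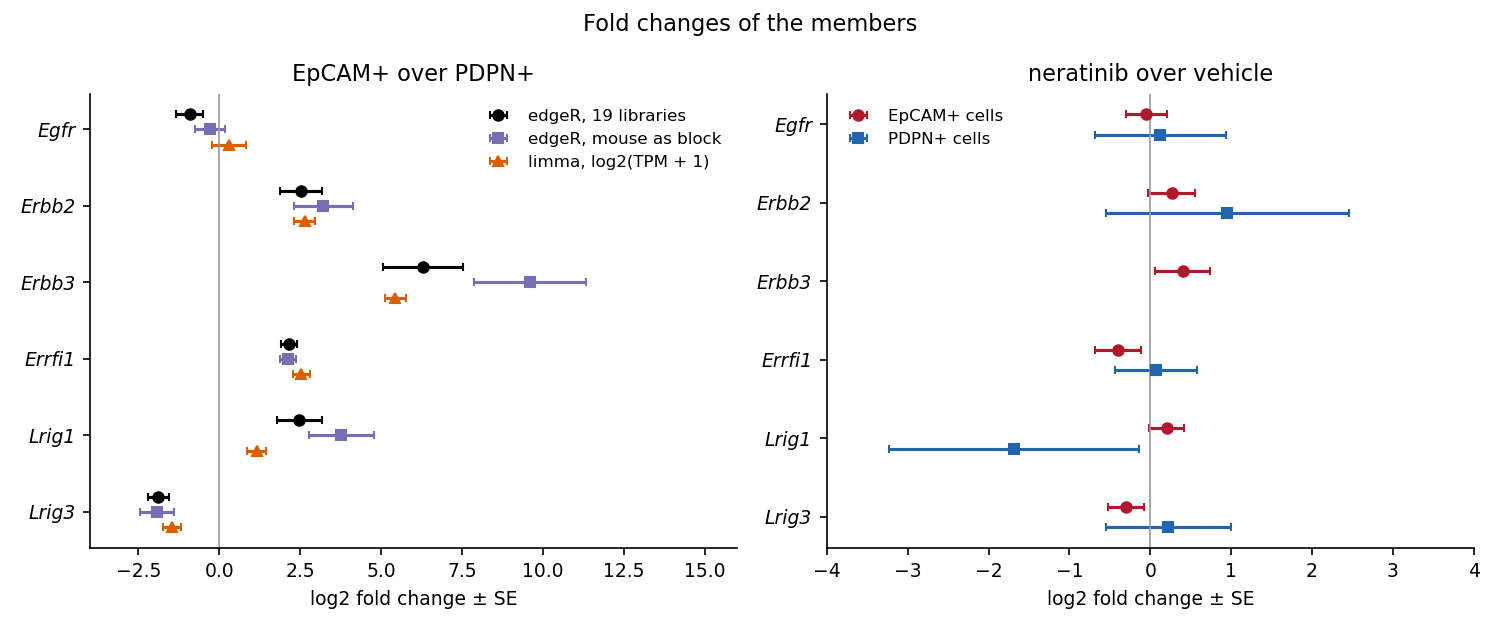
Log2 fold changes with standard errors for 6 members (rows). The left panel sets EpCAM+ over PDPN+ cells in 3 fits, and the right panel sets neratinib over vehicle within each population. Erbb3, at 6.29, and Errfi1, at 2.16, lie right of 0 in all 3 fits on the left, Egfr changes side, and on the right no member passed the test in either population; Erbb3 is drawn there for EpCAM+ cells alone because it did not pass the filter in PDPN+ cells.

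The second question was whether neratinib changed the RNA of its own targets or of their inhibitors. In EpCAM+ cells no member passed the test, in a comparison where no gene did: 0 of 17200 genes, or 0% of those tested, were called by edgeR, with 524 at an unadjusted p under 0.05, and DESeq2 called 15 genes and no member. Erbb3 averaged 79.7 ± 31.4 TPM with neratinib and 57.5 ± 24.6 TPM with vehicle (SD, n = 5 and 6), and its log2 fold change on counts was 0.40 (SE 0.34). Erbb2 averaged 20.3 ± 7.77 TPM with neratinib and 15.99 ± 4.99 TPM with vehicle, a log2 fold change of 0.26 (SE 0.30). For Egfr the change was -0.05 (SE 0.25), with 22.8 ± 6.08 TPM on neratinib and 22.2 ± 10.5 TPM on vehicle. The 2 highest Erbb3 values and the 3 highest Erbb2 values were neratinib libraries, but for each receptor the neratinib and vehicle libraries overlapped.

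Errfi1 ran the other way in EpCAM+ cells without passing the test. It averaged 92.9 ± 28.9 TPM with neratinib and 120 ± 48.5 TPM with vehicle, and its log2 fold change was -0.40 (SE 0.29, unadjusted p = 0.195, adjusted p = 0.999, edgeR). That was the smallest unadjusted p among the 6 members tested. The 2 lowest Errfi1 libraries were N53194 and N53193, and the highest was V53192. Lrig1 changed by 0.20 (SE 0.22) and Lrig3 by -0.30 (SE 0.23) on the log2 scale. A share of Erbb3 in the receptor TPM of 64.1% ± 3.1 with neratinib stood beside 59.4% ± 5.5 with vehicle, and these shares overlapped.

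In PDPN+ cells 0 of 14437 genes, again 0%, were called by edgeR, with 331 at an unadjusted p under 0.05, and 5 members could be tested. DESeq2 called 76 genes and no member. Egfr averaged 29.1 ± 28.1 TPM with neratinib and 25.2 ± 19.9 TPM with vehicle (SD, n = 4 each), and the log2 fold change was 0.12 (SE 0.81). Errfi1 averaged 17.7 ± 2.32 TPM with neratinib and 19.3 ± 15.7 TPM with vehicle, a change of 0.07 (SE 0.50) on counts. Mitochondrial transcripts took 24.8 to 32.5% of the TPM in PDPN+ neratinib libraries and 19.4, 16.3, 12.3 and 30.4% in PDPN+ vehicle libraries, and with TPM rescaled without them Errfi1 averaged 24.7 TPM with neratinib and 23.0 TPM with vehicle. Lrig3 changed by 0.22 (SE 0.77), Erbb2 by 0.95 (SE 1.5) and Lrig1 by -1.68 (SE 1.54). The standard errors were 0.50 to 1.54 on the log2 scale in PDPN+ cells and 0.22 to 0.34 in EpCAM+ cells, so a difference of the same size was less detectable in PDPN+ cells.

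The difference between the neratinib effects, EpCAM+ minus PDPN+, was tested directly over all 19 libraries. It was called for 13 of 19626 genes, or 0.0662% (0.0611% higher and 0.0051% lower), and for 0 of the 6 members tested, by edgeR. The count of genes hung on the fit, with 691 by DESeq2, 572 without the 2 PDPN+ libraries that stood apart, 1 without the 3 such EpCAM+ libraries and 0 with the mouse as a block, and no member was called in any of these. The member with the smallest unadjusted p was Lrig1, with a difference of 1.94 on the log2 scale (SE 1.28, adjusted p = 0.685, edgeR).

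The transcripts of the members showed what the gene sums hold. Egfr-202, the form without the kinase codon, made up 50.1% of the mean Egfr TPM in EpCAM+ cells and 53.7% in PDPN+ cells. The full-length Egfr-201 made up 29.6% in EpCAM+ cells and 32.6% in PDPN+ cells. Per library, Egfr-202 took 39.2, 48.1, 52.6, 42.2 and 43.6% of the Egfr TPM with neratinib in EpCAM+ cells, and 48.3 to 57.5% with vehicle (median 56.4). Neratinib and vehicle libraries overlapped in that share, with 1 neratinib library inside the vehicle range and another, at 48.1%, just below it. How many other transcripts shift as far was not counted. No test was made of the Egfr-202 share, and Egfr-202 itself was not called (log2 fold change -0.25, SE 0.30, edgeR). In PDPN+ cells the Egfr-202 share ran from 0.698 to 74.5% with neratinib and from 0 to 67.8% with vehicle, so isoform splits there were not stable between libraries. The short processed transcript Egfr-205 held 13.0% of the Egfr TPM in EpCAM+ cells on 7.66 to 48.6 reads.

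Lrig3 differed between the populations through Lrig3-206, an annotated retained-intron transcript of 1554 bases. Lrig3-206 held 24.9% of the mean Lrig3 TPM in EpCAM+ cells and 69.6% in PDPN+ cells. Its mean was 0.573 ± 0.450 TPM in EpCAM+ cells and 6.11 ± 4.14 TPM in PDPN+ cells, and it was lower in EpCAM+ cells by the transcript-level test (log2 fold change -3.74, SE 1.12, adjusted p = 0.0119, edgeR). The coding transcript Lrig3-201 averaged 1.52 ± 0.358 TPM in EpCAM+ cells and 1.74 ± 1.32 TPM in PDPN+ cells and was not called (-0.50, SE 0.55, adjusted p = 0.491, edgeR). The PDPN+ library of N53194 had no Lrig3-206 read, and that of N53178 had 98.9% of its Lrig3 TPM there.

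The main Errfi1 transcripts, Errfi1-201 and Errfi1-202, share 1 coding sequence of 1383 bases and are 3043 and 3036 bases long. How surely reads were assigned between such similar transcripts was not tested. The Errfi1-202 share of the Errfi1 TPM ran from 15.7 to 74.8% in EpCAM+ libraries and from 2.43 to 94.8% in PDPN+ libraries. In EpCAM+ cells Errfi1-202 was assigned 38.5 ± 11.0 TPM with neratinib and 38.8 ± 7.48 TPM with vehicle. Errfi1-201 was assigned 51.6 ± 34.1 TPM with neratinib and 74.8 ± 52.5 TPM with vehicle, from 12.5 TPM in N53194 to 171 TPM in V53192. Over the 11 EpCAM+ libraries the SD was 44.6 TPM for Errfi1-201 and 8.75 TPM for Errfi1-202. Both transcripts were higher in EpCAM+ than in PDPN+ cells (2.15 with an adjusted p of 0.043 for Errfi1-201 and 2.65 with an adjusted p of 0.0014 for Errfi1-202, edgeR). In all, 7 of the 15 member transcripts tested were called between the populations, 6 higher and 1 lower, where 41.8% of all transcripts were called (28.8% higher and 13.1% lower), and 0 were called for neratinib in either population, where 0% of all transcripts were. Erbb3 had 1 transcript with reads, Erbb3-201, and Erbb2-201 held 91.9% of the Erbb2 TPM in EpCAM+ cells and 100% in PDPN+ cells. Lrig1-206, a processed transcript of 438 bases, held 10.3% of the mean Lrig1 TPM in EpCAM+ cells and 57.3% in PDPN+ cells, where N53178 had 97.5% of its Lrig1 TPM there on 2.96 reads and N53180 had 92.8% on 35.6 reads, and the other 6 libraries had no such read.

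**Figure D4:**
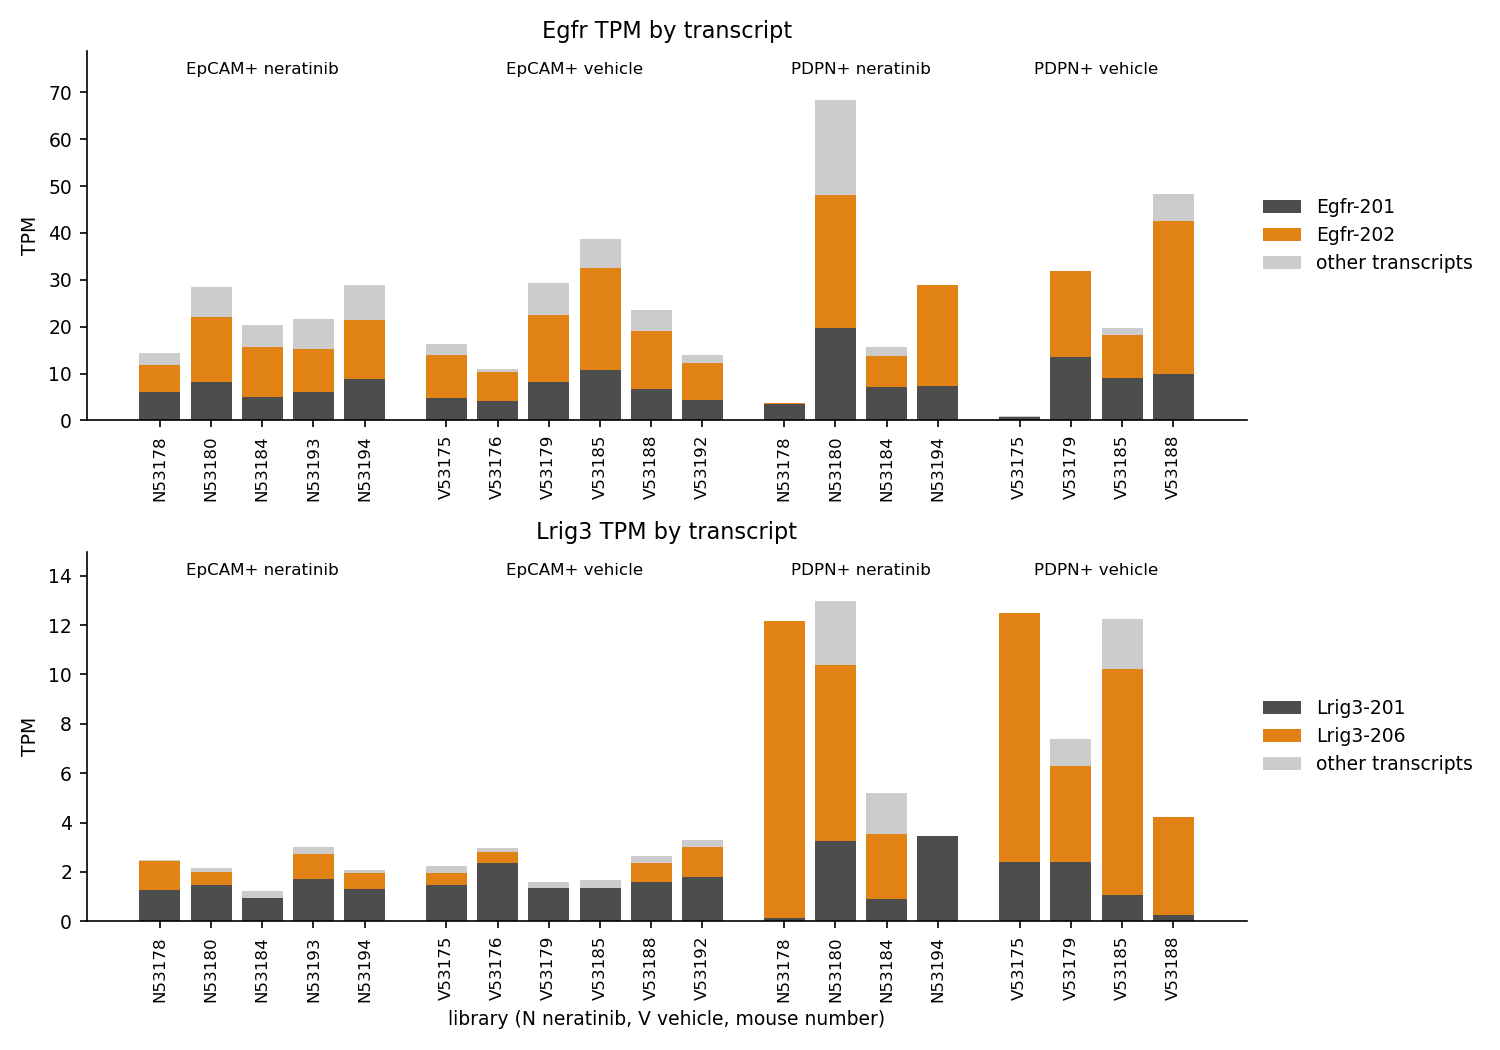
TPM of Egfr (top) and Lrig3 (bottom) in each library, stacked by transcript, EpCAM+ groups first. Dark bars are the full-length coding transcripts, orange bars are Egfr-202 and Lrig3-206, and grey bars are all others. Egfr-202 is the largest Egfr segment in most libraries, and the tall Lrig3 bars of PDPN+ cells are mainly Lrig3-206, which is at 0 in the PDPN+ library of N53194.

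Within EpCAM+ cells, Erbb3, Erbb2 and Lrig1 had lower ranges in the 3 libraries set apart by the first component than in the other 8. The 3 were picked from these same data, on a component that holds 38.0% of the variance over all genes tested. A split picked this way separates many genes. The share of all genes that separate as these members do was not counted, and no correlation of a member with the component was computed. In V53175, V53176 and N53178, Erbb3 was 28.5 to 35.6 TPM, against 56.6 to 108 TPM in the other 8 libraries. Erbb2 was 7.88 to 11.4 TPM in those 3 libraries, against 18.4 to 27.2 TPM in the other 8, and Lrig1 was 1.28 to 1.82 TPM, against 1.89 to 4.05 TPM. Egfr overlapped, at 11.0 to 16.4 TPM against 13.9 to 38.8 TPM. Errfi1 was 129 to 136 TPM in the 3 libraries and 58.6 to 103.3 TPM in the other 8 except V53192, at 206 TPM. The same 3 libraries had 582 to 897 TPM of Epcam, against 114 to 208 TPM in the other 8, and 175 to 207 TPM of the adhesion gene Cdh1, against 569 to 930 TPM, while the keratin gene Krt8 was alike at 4014 to 5399 and 3980 to 5627 TPM. They comprise 1 neratinib and 2 vehicle mice, and their part in the treatment comparison was measured by leaving them out. Without them no member was called, and no gene was, by edgeR with 797 genes at an unadjusted p under 0.05.

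**Figure D5:**
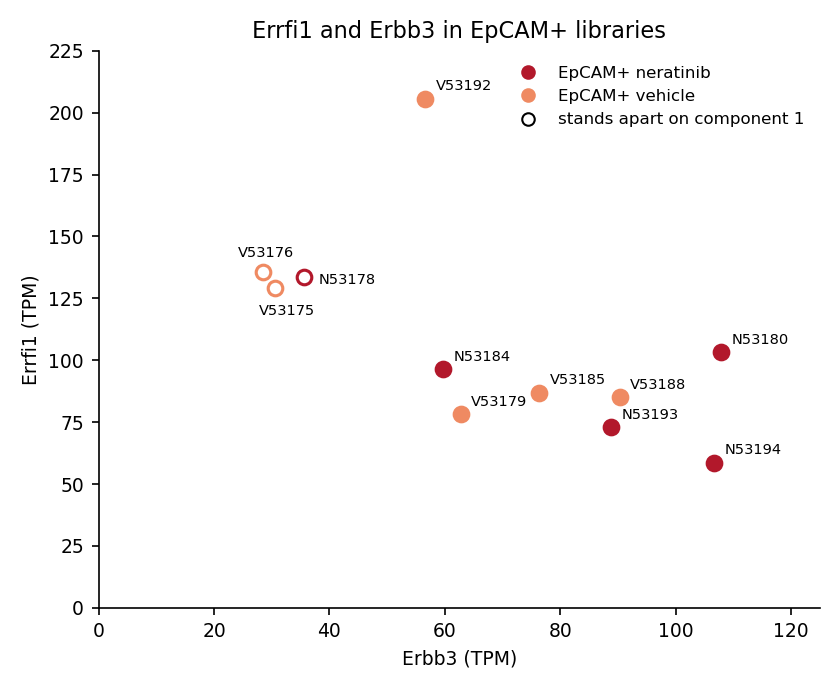
Errfi1 against Erbb3, both in TPM, in the 11 EpCAM+ libraries, with neratinib in dark and vehicle in light red. Open points are V53175, V53176 and N53178, which stood apart on the first component and lie at 28.5 to 35.6 TPM of Erbb3 and 129 to 136 TPM of Errfi1. V53192 is the library at 206 TPM of Errfi1.

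The genes whose log2 level followed a member most closely across libraries of a population, after the group means were removed, are given as a description. Over the 11 EpCAM+ libraries Erbb3 was nearest to Gprc5a (r = 0.994), a retinoic acid-inducible orphan receptor, to Bcl2l1 (0.990), which encodes the survival protein BCL-XL, and to Trim26 (0.986). Erbb2 was nearest to Dolpp1 (0.986), Cluh (0.982) and Sssca1 (0.981). Without the 3 libraries that stood apart, Gprc5a kept r = 0.981 with Erbb3 over 8 libraries, and Cluh had 0.638 with Erbb2. Egfr was nearest to the tight junction gene F11r (0.925), to Fam110c (0.923) and to Gm20186 (0.922). Errfi1 was nearest to Gstcd (0.973), Trim37 (0.969) and Capn10 (0.962). Lrig1 was nearest to Nav2 (0.967), Sar1a (0.953) and Ptprs (0.940), and Lrig3 to Gm32687 (0.943), Cdk2ap1 (0.941) and Tomm7 (0.905). Over the 8 PDPN+ libraries Egfr was nearest to the deacetylase gene Hdac8 (0.994), to Ttc12 (0.990) and to Ube4a (0.987), and Erbb2 to Pnpla6 (0.995), Nt5e (0.994) and Arsj (0.992). Errfi1 was nearest there to Txnrd2 (0.925), Ccnd2 (0.915) and Malt1 (0.913), and Lrig3 to Kmt2e (0.990), Rpf2 (0.966) and Kat6a (0.965). All genes of a library share its depth and makeup, and the nearest of many candidate genes is high by selection.

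The pathway around the members was read from 8 lists that hold 80 genes, of which 79 were matched by name. Between the populations 75 could be tested, and 36 were called, 20 higher and 16 lower in EpCAM+ cells, a share near the 49.3% of all genes called (25% higher and 24.3% lower). Their median log2 fold change was 0.39, against 0.13 over all genes. Among the ERBB ligands 4 of 7 tested were higher and 0 lower. Areg, which encodes amphiregulin, averaged 17.8 TPM with neratinib and 28.7 TPM with vehicle in EpCAM+ cells and 0 and 0.137 TPM in PDPN+ cells (log2 fold change 9.79, SE 0.86, adjusted p = 1.62e-07, edgeR). Hbegf, the heparin-binding EGF-like ligand, averaged 560 TPM with neratinib and 557 TPM with vehicle in EpCAM+ cells, against 70.8 TPM with neratinib and 81.6 TPM with vehicle in PDPN+ cells (2.57, SE 0.24). Nrg4, a neuregulin that binds ERBB4, averaged 6.21 TPM with neratinib and 4.17 TPM with vehicle in EpCAM+ cells, against 0.0475 TPM with neratinib and 0.222 TPM with vehicle in PDPN+ cells (4.96, SE 0.78).

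The counts in the other lists stand against the same background, in which 25% of all genes were higher and 24.3% lower. Of 11 ubiquitin and trafficking genes 2 were higher and 1 lower, the last being Cblb, a ubiquitin ligase for active receptors (-2.33, SE 0.33), while Sh3gl2 and Eps15 were higher (3.08, SE 0.60 and 0.81, SE 0.22). Of 9 other receptor-level inhibitors 1 was higher, the phosphatase gene Ptprk (2.50, SE 0.62), and 4 were lower, with Dcn, also a fibroblast marker, at -8.50 (SE 0.73) and Socs5 at -1.84 (SE 0.36). Of 7 chaperones and partners 3 were higher and 2 lower. Muc1, an epithelial mucin that binds ERBB receptors and is also an epithelial marker, was at 8.40 (SE 0.34), the co-chaperone gene Cdc37 at 0.54 (SE 0.11) and Hsp90b1 at -0.86 (SE 0.11). Of 12 adaptor genes 1 was higher and 4 lower, led by Plcg1 (-2.48, SE 0.40), Pik3r2 (2.45, SE 0.61) and Pik3ca (-1.10, SE 0.34). Of 10 genes of the RAS to ERK chain 2 were higher and 2 lower, among them Mapk3 (0.95, SE 0.20), Hras (-1.74, SE 0.35) and Map2k2 (-1.32, SE 0.30). Of 15 ERK feedback and output genes 6 were higher and 3 lower, led by Ccnd1, which encodes cyclin D1 (4.41, SE 0.34), Spred1 (-1.66, SE 0.24) and Dusp6 (1.43, SE 0.22). Of 4 sheddase genes Adam10 was higher (0.81, SE 0.19). All these values are log2 fold changes of EpCAM+ over PDPN+ cells by edgeR.

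With neratinib, 0 of the 75 pathway genes tested in EpCAM+ cells and 0 of the 72 tested in PDPN+ cells were called. In EpCAM+ cells 51 of the 75 had a negative log2 fold change, with a median of -0.12, against 50.2% negative and a median of -0.00 over all genes. Among the ERK feedback and output genes 13 of 15 were negative, with a median of -0.12. Signs of genes measured in the same libraries are not independent, and no set test was made, so no shift of this list is read from the count. The smallest unadjusted p there were those of the AP-1 gene Fosl1, which averaged 60.7 TPM with neratinib and 88.5 TPM with vehicle (log2 fold change -0.54, SE 0.21, unadjusted p = 0.0254, adjusted p = 0.999, edgeR), and of the ERK phosphatase gene Dusp4 (-0.57, SE 0.29). Areg, at -0.77 (SE 0.41), was nearest to a call among the ligands. In PDPN+ cells 36 of the 72 were negative and the ERK feedback list had 8 negative of 15, against 47.2% over all genes. The smallest unadjusted p among pathway genes there was that of the phosphatase gene Ptpn12, at 10.7 TPM with neratinib and 27.7 TPM with vehicle (-1.75, SE 0.84, unadjusted p = 0.061, adjusted p = 1.00, edgeR). Areg also had the smallest p of the lists for the difference between the neratinib effects (4.78, SE 1.48, adjusted p = 0.202, edgeR), where its PDPN+ neratinib libraries were all at 0.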

How the data were processed

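RNA of sorted cells was made into cDNA with a low-input kit whose PCR cycles were set by RNA amount, per the labels' protocols, which give no strand setting. The deposited tables hold, per transcript, estimated counts and TPM, per the file headers. Salmon 1.9.0 and the build GRCm39 (mm39) are named in the submitters' processing notes, and the transcriptome release is not given in the sources used here. Of 147828 transcripts 137063 had an identifier found in GENCODE M21, which gave 51707 genes, and the unmatched ones held 1.77 to 8.96% of a library's reads. M21 annotates GRCm38, so no coordinates are given, and reads of overlapping or antisense genes cannot be told apart.

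Estimated counts were rounded and tested with edgeR 4.0.16 (R 4.3.3; TMM, low-count filter, quasi-likelihood, Benjamini-Hochberg at 0.05). The treatment was tested within each population, and the populations and the difference of effects over all 19 libraries. The test was checked on simulated counts. Alternatives were DESeq2 1.42.0, limma 3.58.1 on log2(TPM + 1) or log2(TPM + 0.1) with a mean TPM of at least 1 or no filter, DESeq2 size factors, effective length offsets, no count filter, 1 fit over all libraries, each library left out, and the mouse as a block; leaving out libraries that stood apart was chosen after seeing the data. Same-mouse libraries are paired on the reading of the number as the animal. Their deviations correlated at -0.107 to 0.0306 over 8 mice. Fits with the mouse as a block kept those 8 mice alone and left out the 3 mice with EpCAM+ cells alone. Intervals from a floor of 3 reads cover counting error only.

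The members and lists were chosen with earlier results of these data known. The text names the 7 members, the 3 genes most like each member with a mean of at least 1 TPM, by Pearson's r over genes of at least 4 CPM, the transcripts with at least 10% of a gene's TPM, and of each pathway list up to 3 called genes with the smallest p or, with none called, up to 2. Muc4 was not matched by name.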

Additional observations from a re-analysis of the deposited data

Results flagged for a closer look

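In 4 of 26 pairs of a gene and a group 1 library lay far above the rest of its group by an outlier rule. The rule flags about 1 in 20 groups where values are normally distributed. Groups with most values near 0, as in these 4, need not keep that rate, so no excess over chance is read from the count. Erbb3 was at 1.45 TPM (360 reads) in the PDPN+ neratinib library of N53184, and the nearest of its group was at 0.0288 TPM. Erbb4 was at 0.424 TPM (20 reads) in the EpCAM+ vehicle library of V53176, with the nearest at 0.00717 TPM. Lrig1 was at 3.79 TPM (75.7 reads) in the PDPN+ neratinib library of N53180, with the nearest at 0.329 TPM, and at 2.02 TPM (374 reads) in the PDPN+ vehicle library of V53185, with the nearest at 0.346 TPM. Of the Lrig1 level in N53180, 3.52 TPM was the short processed transcript Lrig1-206.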

How the results depend on the processing

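The number of members called stayed at 0 for neratinib in each population and for the difference of effects under every alternative run, and was 4 to 6 between the populations, with 5 under the mouse as a replicate block. Each library left out in turn gave 5 to 6 members between the populations and 0 elsewhere. Signs turned only for changes that had not passed the test; the cause was not tested. For neratinib in EpCAM+ cells, Egfr turned to 0.12 by limma with or without its filter and to 0.13 with a pseudocount of 0.1. In PDPN+ cells, Lrig3 turned to -0.15 by limma with or without its filter, -0.18 with 0.1 and -0.00747 with length offsets, Errfi1 to -0.35 without the 2 libraries that stood apart, Errfi1-202 to 0.0321 by limma, and Lrig1 to 1.02 with length offsets and 0.14 by limma with no filter. For the difference of effects, Lrig3 turned to 0.0641 by limma with or without its filter and 0.0534 with 0.1, Lrig1 to -0.72 with length offsets and Erbb2 to 0.25 without the 2 PDPN+ libraries. Between the populations limma gave 0.30 for Egfr with or without its filter and 0.42 with 0.1, 0.0303 for Lrig3-201, 0.40 for Egfr-202 and 0.26 for Egfr-204. With 1 library left out, the ranges that crossed 0 were, for neratinib, -0.15 to 0.13 for Egfr in EpCAM+ cells and, in PDPN+ cells, -0.10 to 0.53 for Lrig3, -0.51 to 0.58 for Egfr, -0.17 to 0.52 for Errfi1 and -3.82 to 0.00967 for Lrig1; for the difference of effects they were -0.0613 to 6.91 for Erbb3 and -0.64 to 0.46 for Egfr. With the block, 6792 of 19078 genes were called between the populations, and it changed no call of a member. One fit over all libraries called 111 genes for neratinib in PDPN+ cells. Low read counts limit what can be said of Erbb4, and of Erbb3 and Lrig1 in PDPN+ cells, where several libraries had fewer than 10 reads. Whether sequencing depth accounts for these low counts was not tested.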
